A study of Mus musculus with 46 samples.

Results

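Hearts of mice that lacked the DNA sensor cGas were compared between animals with 2 floxed copies of Lmna and animals with 1, to ask which transcripts change on loss of Lmna when cGas cannot signal. The comparison holds 8 of the 46 libraries of the series. The 4 libraries with both copies floxed (Lmna F/F; cGas null/null, here F/F) came from 2 male and 2 female hearts. The 4 with a single floxed copy (Lmna F/+; cGas null/null, here F/+) came from males. Membership was taken from the labelled genotypes. Every one of these hearts, F/+ included, carried Myh6MCM Tg/0, a Cre recombinase that the Myh6 promoter drives in cardiomyocytes and that tamoxifen switches on. Every animal received tamoxifen on 4 consecutive days at 6 to 8 weeks of age, and hearts were collected 2 weeks later. The F/+ hearts therefore share the Cre, the tamoxifen and a floxed allele with the F/F hearts, and Lmna in cells other than cardiomyocytes is not a target of this Cre. For side by side values, 6 F/F and 6 F/+ hearts with cGas (Lmna F/F; cGas +/+ and Lmna F/+; cGas +/+) were used. They also carried Myh6MCM Tg/0, with the same tamoxifen course, age and time of collection. Of these, the F/F hearts were 3 male and 3 female, and the F/+ hearts 2 male and 4 female.

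Lmna encodes lamins A and C, which form a meshwork under the inner nuclear membrane and bear load in the beating cardiomyocyte. Mutations in LMNA cause dilated cardiomyopathy with conduction disease in people. When a nucleus ruptures, its DNA meets the cytosol, where cGas can bind it and make the cyclic dinucleotide cGAMP. That messenger activates Sting1 and the kinase Tbk1, and through Irf3 leads to type I interferon and to interferon-stimulated genes.

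Libraries were made with QuantSeq, which sequences a tag near the 3' end of each messenger RNA, and hold 25081489 to 28884658 counted reads in F/F and 23732239 to 27136038 in F/+ hearts. Levels are given as CPM, normalised read counts scaled to a common library size after TMM. Differences are log2 fold changes, F/F over F/+, ± SE from edgeR's quasi-likelihood test with sex as a covariate, and a gene was called at a Benjamini-Hochberg adjusted p under 0.05 over 14812 genes. Whether every library stands for its own animal is unstated in the labels, and the p-values therefore describe library-to-library spread, which may be technical. Between 20626 and 21226 genes had a read in F/F libraries, against 19771 to 20375 in F/+ libraries. That gap is beyond the spread (exact two-sided permutation p = 0.0286, the smallest that 4 against 4 libraries allow). Messenger RNAs of the mitochondrial genome took 27.9 ± 5.45% of the reads in F/F and 31.9 ± 7.02% in F/+ libraries (SD, n = 4 each; exact permutation p = 0.343). Sex-linked transcripts matched the labelled sex in each library.

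Lmna itself gave 25.7, 16.4, 18.0 and 28.5 CPM in F/F replicates 1 to 4, against 20.2, 25.6, 25.5 and 23.6 CPM in F/+ hearts. The groups overlapped (-0.04 ± 0.19, edgeR adjusted p = 0.970). The position of the floxed part of Lmna was not stated in the labels, and a 3' tag outside it checks nothing about the deletion. Cgas, the gene of the sensor, averaged 0.876 ± 0.258 CPM in F/F and 0.565 ± 0.243 CPM in F/+ hearts without cGas (SD, n = 4 each). In hearts with cGas its means were 2.88 CPM in F/F and 1.45 CPM in F/+, so tags of the null allele were fewer but not at 0.

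Without cGas, the F/F hearts had more transcript of monocyte-attracting chemokines, of monocyte and macrophage genes, and of a few matrix proteins and protease inhibitors than F/+ hearts. Of 14812 genes 78 were called, which is 0.527%. Of these, 74 were higher in F/F hearts (0.5% of the genes tested) and 4 were lower (0.027%). At an unadjusted p under 0.05 there were 1528 genes. The F/F and F/+ values did not overlap in 476 genes that were higher in F/F (3.21%) and in 330 that were lower (2.23%). The median log2 fold change over all genes was -0.02. The rise was steepest in the male F/F hearts (replicates 1 and 4), and the female F/F hearts (replicates 2 and 3) lay between these and the F/+ hearts for most of the genes described here. Because no F/+ heart without cGas was female, sex and the severity of the change in F/F hearts cannot be told apart in these 8 libraries. In these bulk libraries, more cells of a type and more RNA per cell cannot be told apart either.

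Among the gene lists, chemokines had the largest share of tested members called. Ccl2, the main ligand that draws Ccr2-bearing monocytes out of the blood, stood at 23.9, 6.34, 3.62 and 16.5 CPM in F/F replicates 1 to 4, against 1.14, 1.26, 1.77 and 2.18 CPM in F/+ hearts. The lowest F/F heart lay above the highest F/+ heart, with a rise of 3.18 ± 0.42 (edgeR adjusted p = 0.00213). Ccl7, a neighbouring ligand of the same receptor, stood at 26.9, 6.13, 3.54 and 18.4 CPM in F/F, against 1.60, 2.26, 2.24 and 3.06 CPM in F/+ hearts. Its groups did not overlap either, and it was 2.83 ± 0.41 higher (edgeR adjusted p = 0.00353). Ccl12, a mouse monocyte chemoattractant of that gene cluster, stood at 28.1, 4.87, 2.88 and 8.70 CPM in F/F, against 2.88, 1.34, 1.47 and 1.11 CPM in F/+ hearts. Here the lowest F/F heart was level with the highest F/+ heart to 3 digits, and the log2 fold change was 2.87 ± 0.57 (edgeR adjusted p = 0.0225). Of 20 chemokine genes tested in a list of 21, these 3 and the neutrophil-attracting Cxcl2 (3.29 ± 0.59, edgeR adjusted p = 0.0141) and Cxcl5 (3.16 ± 0.58, edgeR adjusted p = 0.0147) were called higher, and 0 lower. The list's median log2 fold change was 1.42 and 18 of the 20 were above 0, against 47.6% of all genes. Ccl8, another monocyte ligand, was at 8.52 to 19.8 CPM in F/F and 1.80 to 3.49 CPM in F/+ hearts without a call (2.63 ± 0.69, edgeR adjusted p = 0.0781). Ccl2 and Ccl7 kept their calls with any single library left out. Ccl12, Cxcl2 and Cxcl5 lost theirs without F/F replicate 1 or 4, or F/+ replicate 2, 3 or 4, with edgeR adjusted p up to 0.191 for Ccl12 and 0.0747 for Cxcl2 and Cxcl5.

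**Figure D1:**
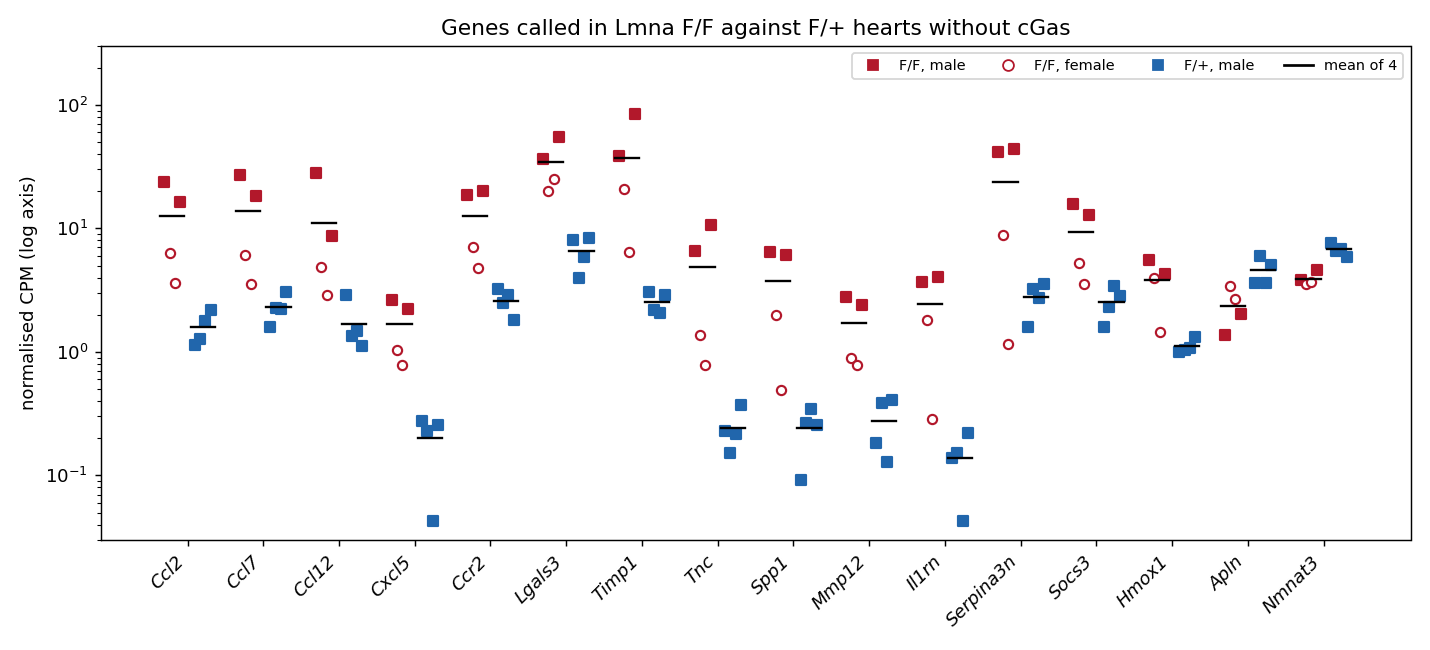
Normalised CPM on a log axis of 16 called genes in each of the 8 hearts without cGas. F/F libraries are red (filled squares male, open circles female) and stand left of F/+ libraries in blue, and black lines are means of 4. Male F/F hearts are the highest for Ccl2 (23.9 and 16.5 CPM) and females lie between them and F/+ hearts, while Apln and Nmnat3 are lower in F/F.

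Genes of monocytes and macrophages moved in the same direction as the chemokines. Ccr2, the receptor for Ccl2 and Ccl7 on recruited monocytes, stood at 18.5, 7.02, 4.82 and 20.2 CPM in F/F, against 3.20, 2.49, 2.89 and 1.81 CPM in F/+ hearts. It was 2.61 ± 0.51 higher with no overlap (edgeR adjusted p = 0.0215). Lgals3, the lectin galectin-3 of activated macrophages, stood at 36.7, 20.1, 25.1 and 54.7 CPM in F/F, against 8.05, 3.98, 5.82 and 8.33 CPM in F/+ hearts. It was 2.50 ± 0.49 higher (edgeR adjusted p = 0.0215), and here the female F/F hearts were also well above the highest F/+ heart. Ctss, a lysosomal protease that trims the class II invariant chain, averaged 73.1 ± 30.9 CPM in F/F and 29.5 ± 4.49 CPM in F/+ hearts (SD, n = 4 each; 1.51 ± 0.32, edgeR adjusted p = 0.0313). Cd14, a co-receptor for bacterial lipopolysaccharide, was 0.99 ± 0.22 higher although its groups overlapped (edgeR adjusted p = 0.0413). With Mpeg1, a pore-forming protein of phagocytes (1.61 on the log2 scale), 5 of 25 macrophage markers were called higher and 0 lower. The list's median log2 fold change was 0.87, and 24 of 25 lay above 0, against 47.6% of all genes. Summed over the list, markers reached 561.6 to 1180 CPM in F/F and 453.1 to 743.3 CPM in F/+ hearts. The general macrophage gene Adgre1 was at 0.75 ± 0.26 and Csf1r, the receptor for the macrophage growth factor, at 0.51 ± 0.24, both without a call (edgeR adjusted p = 0.215 and 0.468). Each of these 5 calls was lost without F/F replicate 1, F/F replicate 4, F/+ replicate 2, F/+ replicate 3 or F/+ replicate 4, with edgeR adjusted p up to 0.125 for Lgals3, 0.108 for Ccr2, 0.191 for Ctss and 0.21 for Mpeg1 and Cd14. Ctss and Cd14 also lost theirs without F/F replicate 2, and Mpeg1 and Cd14 without F/+ replicate 1.

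Outside the lists, more leukocyte genes stood among the 74, here named after their values were seen. Coro1a, an actin regulator of blood cells, was 1.54 ± 0.28 higher in F/F hearts (edgeR adjusted p = 0.0141). Itgax, the integrin CD11c of dendritic cells and some macrophages, was 2.87 ± 0.63 higher (edgeR adjusted p = 0.039). Tlr13, an endosomal receptor for bacterial ribosomal RNA in mice, was 1.41 ± 0.31 higher (edgeR adjusted p = 0.0405). Msr1, a scavenger receptor, was 1.63 ± 0.37 higher (edgeR adjusted p = 0.0436), and Irf5, a transcription factor of inflammatory macrophages, 1.55 ± 0.29 higher (edgeR adjusted p = 0.0204). Ccl17 and Ccl22, both ligands of Ccr4, were called as well. Ccl22 had 49 reads over the F/F libraries against 2 over the F/+ libraries, a depth-adjusted ratio of 20.8 with a 95% counting interval of 5.45 to 176. F10, the gene of coagulation factor X, had 78 reads in F/F and 0 in F/+ libraries. Set against a floor of 3 counts over the group it was 22.1-fold higher, and the 95% counting interval of its ratio starts lower, at 17.5. Such intervals and floors cover counting error only. Coro1a and Irf5 kept their calls in 4 of 8 leave-one-out fits, Ccl17 in 5, F10 in 3, Itgax and Tlr13 in 2, and Msr1 and Ccl22 in 1, with the loss in each case including the fits without F/F replicate 1 and without F/+ replicate 3.

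Markers of other leukocytes did not pass the test. Of 11 neutrophil markers 5 could be tested and of 10 B cell markers 3, since the rest had too few reads. T and NK cell genes summed to 2.92 to 4.21 CPM in F/F and 0.819 to 2.38 CPM in F/+ hearts over 6 of 17 that could be tested, with 0 called and a median log2 fold change of 1.06. Of class II antigen presentation genes, 0 of 9 were called (median 0.88), led by H2-DMb1 at 1.03 ± 0.30 (edgeR adjusted p = 0.129). For complement, which tags debris and microbes, 0 of 17 were called in edgeR and 2 in DESeq2 (median 0.49). C1qa, part of the initiator C1q, stood at 40.2 to 86.7 CPM in F/F and 36.8 to 45.4 CPM in F/+ hearts (0.82 ± 0.23, edgeR adjusted p = 0.098).

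The interleukin 1, interleukin 6 and acute phase lists gave 1 call each in edgeR. Il1rn, the secreted antagonist of the interleukin 1 receptor, stood at 3.67, 1.83, 0.288 and 4.05 CPM in F/F, against 0.137, 0.153, 0.0431 and 0.221 CPM in F/+ hearts. It was 4.38 ± 0.69 higher without overlap (edgeR adjusted p = 0.00498). Il1b, a ligand of that receptor, was at 1.24 to 3.83 CPM in F/F and 0.640 to 1.45 CPM in F/+ hearts, without a call (1.88 ± 0.53, edgeR adjusted p = 0.107). Of the 16 tested genes around interleukin 1, interleukin 33 and TNF, Il1rn was the 1 called, and the median log2 fold change was 0.58. Socs3, the feedback inhibitor of interleukin 6 signalling, stood at 15.7, 5.23, 3.54 and 12.8 CPM in F/F, against 1.60, 2.29, 3.40 and 2.84 CPM in F/+ hearts. The male F/F hearts were the highest, and it was the 1 called of 11 interleukin 6 family genes (2.10 ± 0.41, edgeR adjusted p = 0.0215), whose median was -0.01. Il6 itself lay at 0.143 to 1.32 CPM in F/F and 0 to 0.0862 CPM in F/+ hearts (edgeR adjusted p = 0.0821). Serpina3n, an acute phase protease inhibitor, stood at 41.6, 8.78, 1.15 and 44.1 CPM in F/F, against 1.60, 3.25, 2.71 and 3.54 CPM in F/+ hearts. It was 3.44 ± 0.57 higher (edgeR adjusted p = 0.00742) although F/F replicate 3 lay below every F/+ heart. It was the 1 called of 11 acute phase genes, whose median was 1.14. Il1rn kept its call with any single library left out, but lost it in limma-voom (adjusted p = 0.0715) and did not pass the low-count filter in fits of the 8 libraries alone. Serpina3n lost its call without F/F replicate 4 or F/+ replicate 3 (edgeR adjusted p up to 0.0553). Socs3 lost its call in 6 of the 8 leave-one-out fits, with exceptions for F/F replicates 2 and 3 (up to 0.122). With no sex term both lost their calls (edgeR adjusted p = 0.075 for each). Serpina3n lost its call in limma-voom as well.

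Interferon-stimulated genes, the readout of cGas and Sting1 signalling, gave 0 calls of 43 tested in edgeR, with 8 higher and 0 lower at an unadjusted p under 0.05, which 10.3% of all genes passed in either direction. Of the list, 1 was called in DESeq2, and 0 in limma-voom and in the fit of male hearts. Their median log2 fold change was 0.44 against -0.02 over all genes, 40 of 43 lay above 0 (47.6% of all genes did), and 5 were higher in F/F hearts without overlap (3.21% of all genes). Oas3, which makes the activator of the RNA-degrading enzyme RNase L, had 37 reads in F/F and 1 in F/+ libraries (ratio 31.4, 95% counting interval 5.29 to 1270; edgeR adjusted p = 0.0603). Mx1, an antiviral GTPase, stood at 0.599, 0.394, 0.741 and 0.671 CPM in F/F, against 0.137, 0.115, 0.215 and 0.147 CPM in F/+ hearts. These groups did not overlap, and the log2 fold change was 2.11 ± 0.62 (edgeR adjusted p = 0.126). The more abundant Ifit1, a binder of foreign RNA ends, stood at 9.47, 5.88, 11.5 and 9.24 CPM in F/F, against 9.78, 4.09, 7.80 and 3.24 CPM in F/+ hearts. Isg15, a ubiquitin-like modifier, stood at 9.51, 9.89, 14.5 and 10.5 CPM in F/F, against 13.4, 5.31, 9.18 and 3.80 CPM in F/+ hearts. For both, chosen here as standard members of the list, F/+ replicate 1 lay among the F/F hearts. For Ifit1, F/+ replicate 3 also lay above F/F replicate 2. Ifit1 and Isg15 were at 0.51 ± 0.45 and 0.51 ± 0.39 (edgeR adjusted p = 0.8 and 0.748). Of genes that sense cytosolic DNA, 0 of 17 were called in edgeR and 1 in DESeq2 (median 0.46), among them Sting1 at 4.08 ± 1.36 CPM in F/F and 2.73 ± 0.497 CPM in F/+ hearts (0.81 ± 0.22, edgeR adjusted p = 0.101). Enpp1, which degrades cGAMP, was at 0.80 ± 0.22 (edgeR adjusted p = 0.0909). Of class I antigen presentation genes 0 of 16 were called (median 0.29).

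Promoters of the called genes were read beside those of the interferon-stimulated genes, since the interferon response element (ISRE) marks targets of the pathway that cGas feeds. RefSeq promoters of 300 bases (250 before to 50 after the start, GRCm38.p6) were found for 58 of the 74 genes called higher and for 32 of the 43 interferon-stimulated genes. The core GAAANNGAA, searched on both strands, stood in 8.56% of 32851 promoters of all genes. It stood in 22 of 40 promoters of interferon-stimulated genes (55.0%) and in 8 of 75 promoters of the genes called higher (10.7%). The AP-1 motif TGANTCA stood in 7.81% of all promoters, in 12 of 40 of the interferon-stimulated genes and in 8 of 75 of the genes called higher (10.7%). The TEAD motif GGAATG stood in 14.7%, 6 of 40 and 9 of 75. Some ISRE matches overlap each other, and a match is a run of letters and not a known site. Ccl2, Ccl7 and Hmox1, whose calls held in every leave-one-out fit, had no promoter among those found. Shown are the 3 other called genes that held and, for contrast, Ifit1, with matches to the 3 motifs in capitals. Spp1 is at chr5:104434861-104435160 on the + strand and holds an ISRE core read on the opposite strand. Mmp12 is at chr9:7347124-7347423 and Il1rn at chr2:24336610-24336909, both on the + strand, and each holds an AP-1 motif. Ifit1 is at chr19:34640639-34640938 on the + strand and holds 3 ISRE cores.
Spp1: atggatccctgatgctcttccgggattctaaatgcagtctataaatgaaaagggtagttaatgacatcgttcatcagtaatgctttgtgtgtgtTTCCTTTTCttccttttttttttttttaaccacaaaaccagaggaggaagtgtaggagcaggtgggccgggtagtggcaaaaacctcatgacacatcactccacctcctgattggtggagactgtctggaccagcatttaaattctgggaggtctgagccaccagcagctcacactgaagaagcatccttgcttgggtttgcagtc
Mmp12: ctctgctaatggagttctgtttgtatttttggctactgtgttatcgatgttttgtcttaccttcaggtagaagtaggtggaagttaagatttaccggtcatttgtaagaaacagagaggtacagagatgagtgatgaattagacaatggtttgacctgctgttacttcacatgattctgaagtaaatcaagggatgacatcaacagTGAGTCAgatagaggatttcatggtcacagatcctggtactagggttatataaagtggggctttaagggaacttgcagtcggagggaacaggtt
Il1rn: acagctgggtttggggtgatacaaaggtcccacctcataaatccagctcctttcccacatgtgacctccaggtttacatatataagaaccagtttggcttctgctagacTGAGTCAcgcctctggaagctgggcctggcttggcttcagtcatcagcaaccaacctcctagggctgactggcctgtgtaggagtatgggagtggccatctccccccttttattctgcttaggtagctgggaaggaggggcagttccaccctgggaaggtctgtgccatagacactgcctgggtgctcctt
Ifit1: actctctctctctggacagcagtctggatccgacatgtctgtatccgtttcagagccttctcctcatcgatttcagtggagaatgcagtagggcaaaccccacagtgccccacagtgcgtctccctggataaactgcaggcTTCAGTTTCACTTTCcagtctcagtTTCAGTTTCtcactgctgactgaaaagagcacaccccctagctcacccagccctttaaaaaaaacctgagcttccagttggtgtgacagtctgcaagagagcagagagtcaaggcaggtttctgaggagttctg

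Matricellular proteins, which sit in the matrix and signal to cells, and matrix proteases and their inhibitors rose in part. Spp1, osteopontin, stood at 6.39, 1.97, 0.494 and 6.04 CPM in F/F, against 0.0914, 0.268, 0.345 and 0.258 CPM in F/+ hearts. It was 4.45 ± 0.68 higher without overlap (edgeR adjusted p = 0.00428). Tnc, tenascin C of injured myocardium, stood at 6.59, 1.36, 0.782 and 10.7 CPM in F/F, against 0.229, 0.153, 0.215 and 0.369 CPM in F/+ hearts. It was 4.59 ± 0.78 higher (edgeR adjusted p = 0.00787), and with Spp1 made 2 calls of 18 matricellular genes, whose median was 0.64. Timp1, an inhibitor of metalloproteinases, stood at 38.3, 20.8, 6.38 and 83.7 CPM in F/F, against 3.06, 2.18, 2.07 and 2.88 CPM in F/+ hearts. Each F/F heart was above each F/+ heart, and the log2 fold change was 4.15 ± 0.69 (edgeR adjusted p = 0.00742). Mmp12, the macrophage elastase, averaged 1.70 ± 1.01 CPM in F/F and 0.275 ± 0.139 CPM in F/+ hearts (SD, n = 4 each; 2.79 ± 0.44, edgeR adjusted p = 0.00491). With Timp1 it made 2 calls of 18 metalloproteinases and inhibitors (median 0.58). Spp1 and Mmp12 kept their calls with any single library left out, but Spp1 lost its call with no sex term (edgeR adjusted p = 0.0636) and in limma-voom (adjusted p = 0.0523). Tnc and Timp1 lost theirs without F/F replicate 4 or F/+ replicate 3, with edgeR adjusted p up to 0.0659 and 0.0603. Tnc also lost its call in limma-voom.

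Structural collagens did not pass the test, and in F/F hearts without cGas their sums were higher in the males. Of 20 collagen chains 0 were called in edgeR, 1 in DESeq2 and 0 in limma-voom. At an unadjusted p under 0.05, 9 were higher and 0 lower, a threshold that 10.3% of all genes passed in either direction. The median log2 fold change was 0.75 and 18 lay above 0, against 47.6% of all genes. Col8a1, a short-chain collagen of remodelling vessels and heart, stood at 77.2, 28.5, 16.3 and 77.9 CPM in F/F, against 21.4, 23.1, 19.6 and 23.3 CPM in F/+ hearts (1.36 ± 0.37, edgeR adjusted p = 0.0896). The male F/F hearts were far above F/+ and F/F replicate 3 was below every F/+ heart. Summed over the list, collagen transcripts reached 1133 to 1712 CPM in the male F/F hearts, 569.8 to 607.1 CPM in the female F/F hearts and 361.9 to 657.4 CPM in F/+ hearts. In F/F hearts with cGas the sexes overlapped, at 514.9 to 1539 CPM in males and 809.4 to 911.9 CPM in females. With the male F/F hearts left out, an alternative chosen after seeing the data, the list's median turned to -0.08. That setting compares female F/F with male F/+ hearts, and its sex term rests on the hearts with cGas alone. Medians of collagen processing enzymes (0.57, 0 of 19 called) and matrix proteoglycans and glycoproteins (0.17, 0 of 22 called) also turned below 0 in that setting, at -0.01 and -0.07. Postn, periostin of activated fibroblasts, stood at 59.8, 27.6, 31.2 and 43.4 CPM in F/F, against 7.18, 10.1, 11.4 and 14.6 CPM in F/+ hearts. Its groups did not overlap in either sex of F/F hearts, without a call (1.92 ± 0.53, edgeR adjusted p = 0.0928). Of activated fibroblast markers 0 of 11 were called in edgeR and 2 in DESeq2 (median 0.72, summed 162.8 to 191.7 CPM in F/F and 93.3 to 137.6 CPM in F/+), and of resting fibroblast markers 0 of 16 (median 0.20). Among TGF-beta and activin genes 0 of 23 were called in edgeR and 1 in DESeq2 (median 0.34), with Gdf15, a stress-induced cytokine of that family, at 1.71 ± 0.40 (edgeR adjusted p = 0.0503).

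Cell cycle genes pointed one way, with few calls. Of 30 proliferation genes, 30 had a log2 fold change above 0, against 47.6% of all genes. The median was 0.90, and 13 were higher in F/F hearts without overlap, beside 3.21% of all genes. At an unadjusted p under 0.05, 25 were higher and 0 lower, a threshold that 10.3% of all genes passed in either direction. Mcm6, a subunit of the replicative helicase, stood at 5.35, 5.12, 4.40 and 7.28 CPM in F/F, against 3.02, 2.37, 2.15 and 2.69 CPM in F/+ hearts (1.10 ± 0.22, edgeR adjusted p = 0.0215). Birc5, survivin of the chromosomal passenger complex, stood at 2.48, 3.48, 2.18 and 5.52 CPM in F/F, against 1.60, 0.841, 1.21 and 1.48 CPM in F/+ hearts (1.50 ± 0.34, edgeR adjusted p = 0.0442). In both the female F/F hearts were above F/+ as well, and they were the 2 called. Mcm6 lost its call without F/F replicate 1 or 4 or F/+ replicate 2, 3 or 4 (edgeR adjusted p up to 0.145), and Birc5 in 7 of 8 leave-one-out fits (up to 0.328), with F/F replicate 3 the exception. Of p53 targets 0 of 20 were called in edgeR and 4 in DESeq2 (median 0.31), led by Phlda3, an inhibitor of Akt, at 6.38 to 9.14 CPM in F/F and 2.15 to 4.78 CPM in F/+ hearts (1.06 ± 0.25, edgeR adjusted p = 0.0521).

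Stress genes gave single calls. Hmox1, heme oxygenase, stood at 5.55, 3.94, 1.44 and 4.23 CPM in F/F, against 1.01, 1.03, 1.08 and 1.33 CPM in F/+ hearts. It was 2.01 ± 0.30 higher without overlap (edgeR adjusted p = 0.00428), kept its call with any single library left out, and was the 1 called of 20 NRF2 targets and iron genes (median 0.09). Psat1, of serine synthesis, averaged 2.96 ± 1.06 CPM in F/F and 1.27 ± 0.343 CPM in F/+ hearts (1.42 ± 0.28, edgeR adjusted p = 0.0215). It was the 1 called of 23 genes of the integrated stress response (median 0.25), and lost its call without F/F replicate 1 or 4 or F/+ replicate 2, 3 or 4 (edgeR adjusted p up to 0.145). Among immediate early genes 0 of 21 were called (median 0.50), and the median was -0.14 without the male F/F hearts. Of heat shock genes 0 of 20 were called (median 0.00). Fetal and stress genes of cardiomyocytes had 0 calls of 19 in edgeR and 1 in DESeq2 (median 0.31), with Ankrd1, a sarcomeric stress protein, at 1547 to 3796 CPM in F/F and 933.5 to 2402 CPM in F/+ hearts (1.08 ± 0.34, edgeR adjusted p = 0.163). The natriuretic peptide gene Nppb stood at 97.9, 36.8, 104 and 84.9 CPM in F/F, against 16.7, 32.8, 71.9 and 31.8 CPM in F/+ hearts (1.32 ± 0.50, edgeR adjusted p = 0.297). Nppa, the atrial natriuretic peptide gene, stood at 147.7, 429.9, 2195 and 397.7 CPM in F/F, against 111.7, 182.5, 255.5 and 733.1 CPM in F/+ hearts (0.14 ± 0.86, edgeR adjusted p = 0.98). Its highest heart in each group, F/F replicate 3 and F/+ replicate 4, was also the highest for the atrial markers Sln and Mybphl. These ranged from 0.599 to 535.7 CPM and from 0.0799 to 27.2 CPM among F/F hearts and from 0.640 to 279.1 CPM and from 0.0457 to 16.7 CPM among F/+ hearts. The part of atrial tissue in Nppa was not tested.

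Genes of cardiomyocyte structure and energy supply had 0 calls, with list medians below 0 whose sign for the structural lists depended on the male F/F hearts. Of 17 cardiomyocyte markers 0 were called in edgeR (1 lower at an unadjusted p under 0.05, which 10.3% of all genes passed in either direction). Among them 0 had a log2 fold change above 0 (47.6% of all genes did), with a median of -0.33. These markers summed to 39740 to 59970 CPM in F/F and 53500 to 99980 CPM in F/+ hearts. Of 42 nuclear-encoded respiratory chain genes 0 were called (5 lower and 0 higher at an unadjusted p under 0.05, a share near the 10.3% of all genes) and 1 lay above 0 (median -0.34). The sums were 22700 to 27910 CPM in male F/F, 35530 to 37790 CPM in female F/F and 31160 to 65390 CPM in F/+ hearts. Of 27 fatty acid oxidation genes 0 were called (median -0.28), and 5 were lower without overlap, beside 2.23% of all genes. Slc25a20, which carries acylcarnitines into mitochondria, stood at 51.4, 53.5, 54.5 and 67.7 CPM in F/F, against 98.2, 88.4, 88.2 and 76.6 CPM in F/+ hearts (-0.54 ± 0.23, edgeR adjusted p = 0.379). Citric acid cycle enzymes (0 of 23 called, median -0.26), PGC-1, PPAR and ERR regulators (0 of 17, median -0.25) and calcium handling and channel genes (0 of 30, median -0.18) lay on the same side. Sarcomere genes (0 of 24 called) had a median of -0.19, which turned to 0.10 without the male F/F hearts, as that of the cardiomyocyte markers turned to 0.03. Endothelial markers (0 of 16, median -0.08) and cytosolic ribosomal proteins (0 of 35, median -0.12) were close to the median of all genes, and both medians changed sign on library totals without TMM, to 0.10 and 0.07. In nuclear envelope lists 0 of 12 lamina and inner membrane genes, 0 of 10 LINC complex genes and 0 of 14 ESCRT-III genes were called in edgeR (in DESeq2 1 lamina gene was), with medians of 0.05, 0.06 and 0.02. Lmnb1, lamin B1, averaged 5.68 ± 1.94 CPM in F/F and 3.12 ± 0.284 CPM in F/+ hearts (0.97 ± 0.25, edgeR adjusted p = 0.0758).

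Slc16a3, which exports lactate, was the 1 called of 24 glucose uptake and glycolysis genes (median 0.03), at 1.32, 1.22, 1.40 and 2.38 CPM in F/F, against 0.503, 0.535, 0.474 and 0.479 CPM in F/+ hearts (1.82 ± 0.42, edgeR adjusted p = 0.0464). Its groups were apart in both sexes of F/F hearts, but the call was lost in 7 of 8 leave-one-out fits (edgeR adjusted p up to 0.247), with F/F replicate 3 the exception. YAP and TEAD targets (0 of 20 called in edgeR and 1 in DESeq2, median 0.02), matrix-binding integrins (0 of 15, median 0.11), intercalated disc genes (0 of 18, median -0.05) and smooth muscle and pericyte markers (0 of 12, median 0.05) had no call in edgeR. Medians this close to 0 changed sign in at least 1 other setting for glycolysis, heat shock, ESCRT-III, LINC complex, lamina, disc, YAP and TEAD, and smooth muscle lists, and give no direction. Atrial markers (0 of 8 called, median -0.83) summed to 162.7 to 4063 CPM in F/F and 143.5 to 1635 CPM in F/+ hearts, and their median turned to 1.05 with no sex term. Red blood cell markers (0 of 6, median -0.68) summed to 476.8 to 1739 CPM in F/F and 486.9 to 2996 CPM in F/+ hearts. The part of atrial tissue and of blood in the other results was not tested.

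The genes called lower were Apln, Nmnat3, Olfr1396 and A530016L24Rik. Apln, the ligand of the apelin receptor in heart and vessels, stood at 1.36, 3.40, 2.68 and 2.01 CPM in F/F, against 3.61, 5.93, 3.62 and 5.09 CPM in F/+ hearts (-1.33 ± 0.30, edgeR adjusted p = 0.0442). Nmnat3, an enzyme of NAD synthesis, stood at 3.83, 3.55, 3.66 and 4.59 CPM in F/F, against 7.68, 6.61, 6.85 and 5.86 CPM in F/+ hearts (-0.75 ± 0.17, edgeR adjusted p = 0.0498). In both the groups were apart, and for Nmnat3 the sexes of F/F hearts were alike in level. Nmrk2, a kinase of NAD synthesis that is named after its values were seen, was among the genes called higher. It stood at 10.3, 12.6, 5.72 and 19.3 CPM in F/F, against 6.67, 1.57, 1.98 and 2.25 CPM in F/+ hearts (2.41 ± 0.51, edgeR adjusted p = 0.0316). Nmnat3 lost its call in each of 8 leave-one-out fits (edgeR adjusted p up to 0.191), Apln in 7 (up to 0.221, with F/+ replicate 1 the exception), and Nmrk2 in 6 (up to 0.145, with F/F replicate 3 and F/+ replicate 1 the exceptions).

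**Figure D2:**
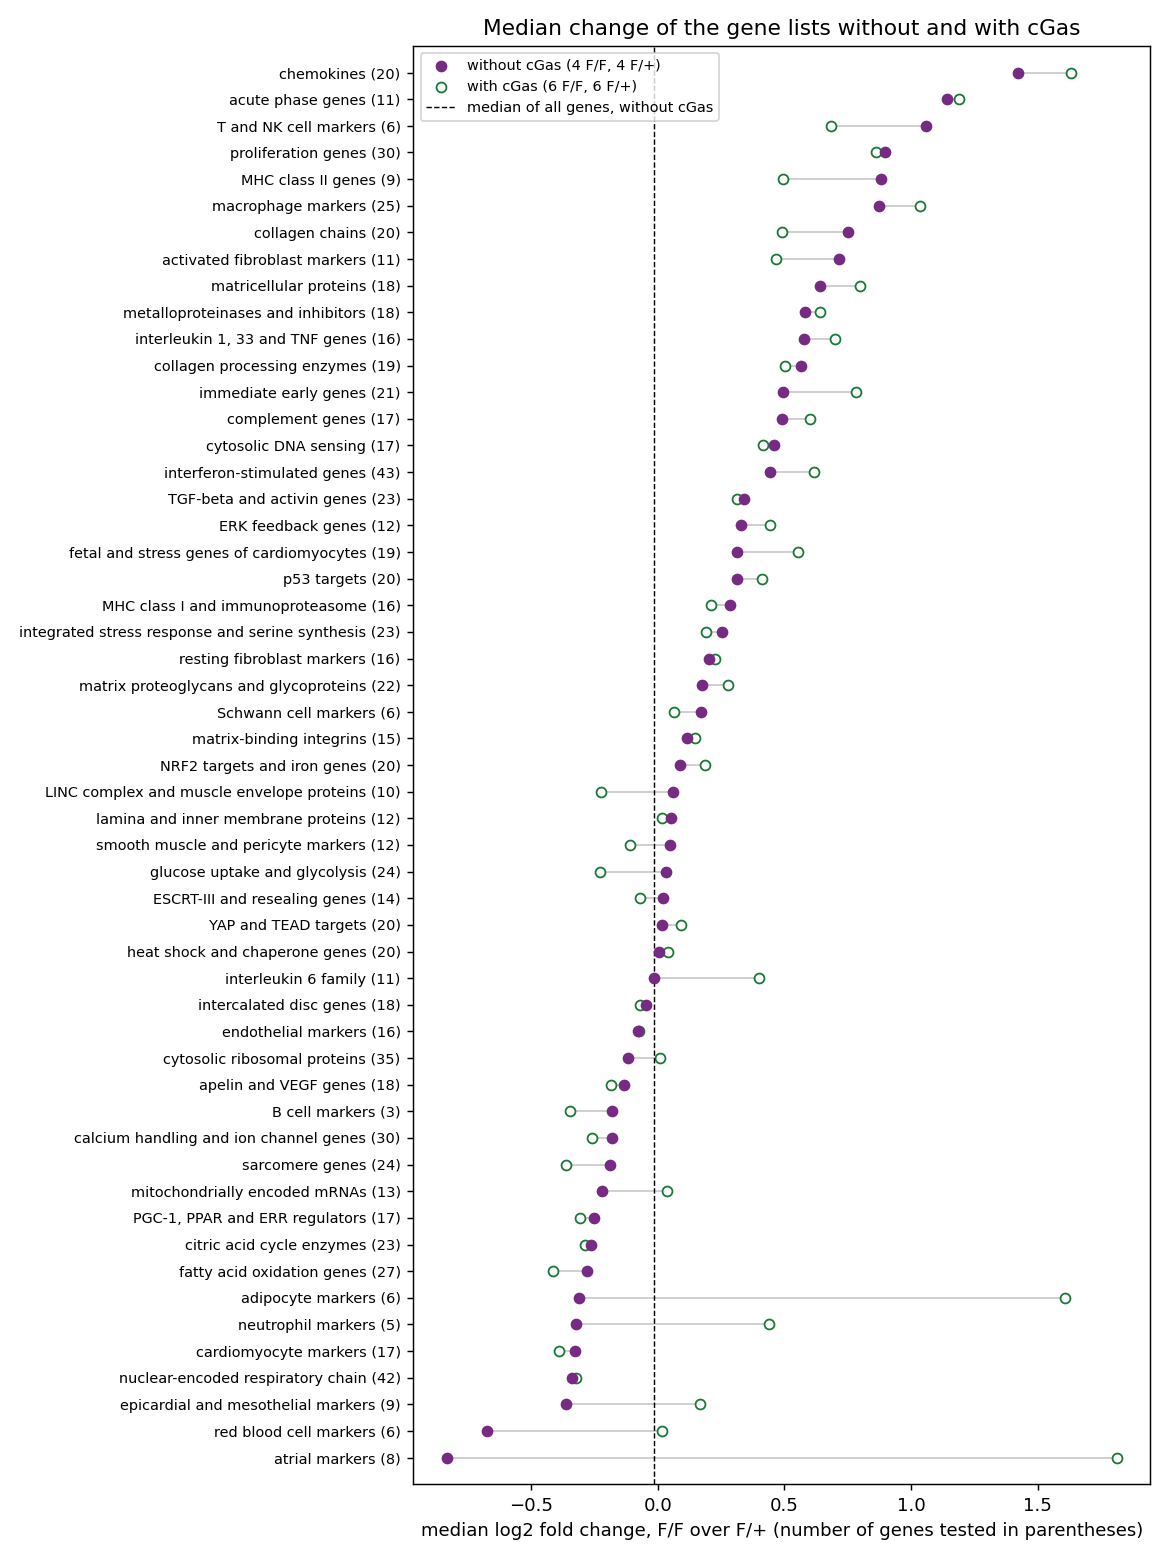
Median log2 fold change, F/F over F/+, of 53 gene lists in hearts without cGas (filled) and with cGas (open), with the number of genes tested in parentheses and a dashed line at the median of all genes without cGas. Chemokines lie highest without cGas at 1.42, and respiratory chain genes lie at -0.34 without and -0.32 with cGas.

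The male and female F/F hearts without cGas were set against each other in a fit with a mean per group and sex. In it 9 genes were higher and 5 lower in males (edgeR adjusted p under 0.05), and 1840 genes had an unadjusted p under 0.05. Over the 74 genes called higher, which were chosen on these same libraries, the median male minus female difference was 0.88 on the log2 scale. The same 74 genes had a median difference of 0.63 between male and female F/F hearts with cGas and of -0.26 between male and female F/+ hearts with cGas. With cGas, where both sexes have F/+ hearts, the median F/F over F/+ difference of these genes was 2.02 in males and 1.27 in females. There 561 genes were higher and 158 lower in males, and 30 higher and 0 lower in females, but the difference between the sexes called 0 genes in edgeR (596 at an unadjusted p under 0.05). Of males without cGas, 2 F/F against 4 F/+ hearts, 275 genes were higher and 15 lower. With the male F/F hearts left out, 0 genes were called in edgeR (932 at an unadjusted p under 0.05). That fit sets 2 female F/F against 4 male F/+ hearts, and its sex term rests on the hearts with cGas alone. The 0 calls therefore do not show that females lack the effect. The genes called as reported, chosen partly on these females, kept their direction there. Ccl2 was at 1.92 and Spp1 at 3.92 (edgeR adjusted p = 0.494 and 0.471).

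**Figure D3:**
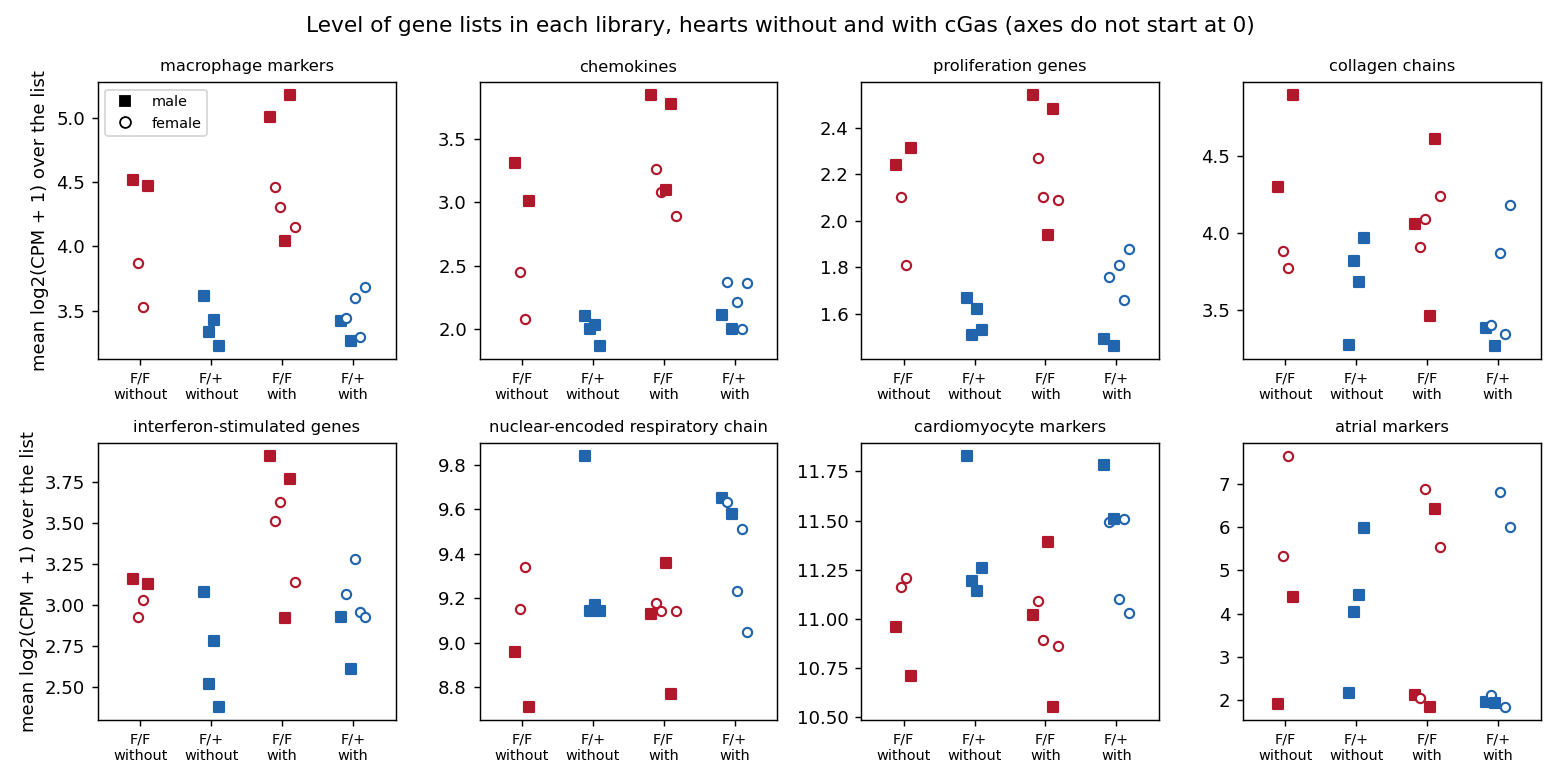
Mean log2(CPM + 1) over 8 gene lists in each of 20 libraries, in F/F and F/+ hearts without cGas and then with cGas (squares male, open circles female; axes do not start at 0). Male F/F hearts without cGas lie above female ones for macrophage markers (4.47 to 4.52 against 3.53 to 3.87), while interferon-stimulated genes overlap between F/F and F/+ hearts without cGas.

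The same contrast in hearts with cGas used 12 other libraries, though the sex term and the estimate of spread are shared by both contrasts, and called 686 of 14812 genes (4.63%), 554 higher (3.74%) and 132 lower (0.891%). Its groups are larger (6 against 6) and its median SE was 0.20, against 0.25 without cGas, so the number of calls does not compare the effects. The difference between the effects was tested directly and called 0 genes in edgeR, 0 in DESeq2 and 0 in limma-voom, with 215 at an unadjusted p under 0.05 (1.45%). With no filter on low counts 23 were called, 2 of them higher and 21 lower. Of the 74 genes called higher without cGas, 73 were above 0 with cGas and 67 were called there (90.5%), and their medians were 1.72 without and 1.52 with cGas. Of the 554 called higher with cGas, 549 lay above 0 without cGas (99.1%, against 47.6% of all genes) and 67 were called (12.1%), with medians of 0.94 without and 1.12 with cGas. Of the 132 called lower with cGas, 123 lay below 0 without cGas, with medians of -0.41 without and -0.68 with cGas, and 4 were called (3.03%). Each set was chosen in one of the contrasts, so its median in that contrast is not independent of the choice.

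**Figure D4:**
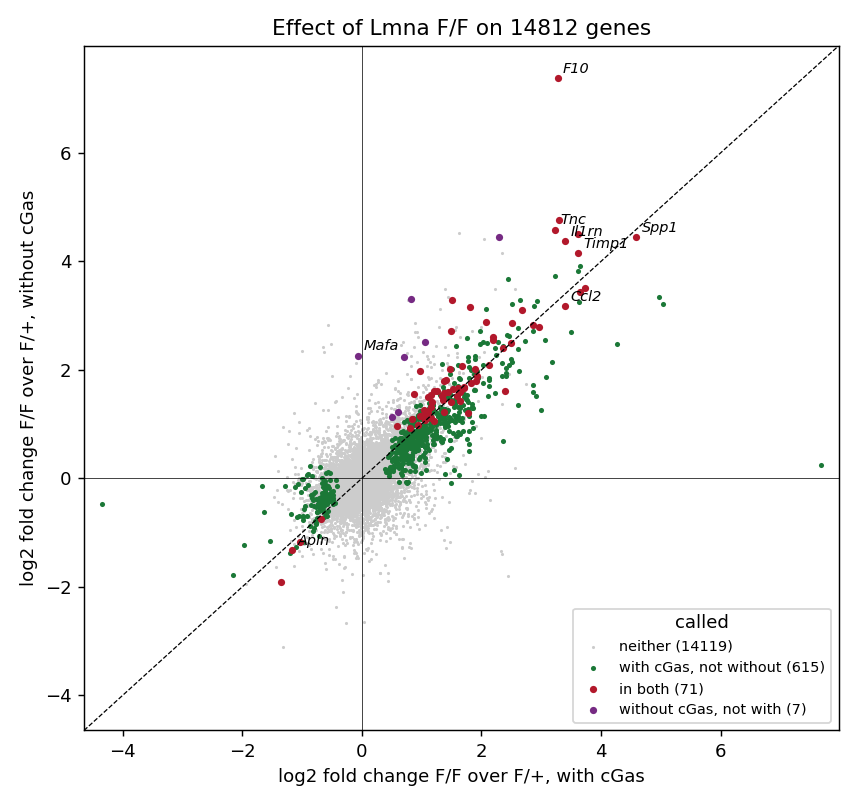
Log2 fold change F/F over F/+ of 14812 genes without cGas (vertical) against with cGas (horizontal), with the dashed line of equal effects. Of the called genes 71 were called in both (red), 7 without but not with cGas (purple) and 615 with but not without cGas (green), and 549 of the 554 called higher with cGas lie above 0 without it.

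For single genes the difference had wide intervals. Ccl2 was 3.18 ± 0.42 higher without cGas and 3.40 ± 0.35 with it, a difference of -0.22 with a 95% interval of -1.36 to 0.91. Spp1 was at 4.45 ± 0.68 and 4.59 ± 0.55 (difference -0.14, interval -2.20 to 1.93), and Timp1 at 4.15 ± 0.69 and 3.62 ± 0.57 (difference 0.53, interval -1.30 to 2.36). Each of these intervals holds a difference of -1, which is a halving of the effect, so they do not show that the effects are alike. For Hmox1 the interval was narrower, with 2.01 ± 0.30 without and 1.89 ± 0.24 with cGas (difference 0.11, interval -0.72 to 0.94). Among interferon-stimulated genes, 0 of 43 were called without and 3 with cGas, with medians of 0.44 and 0.62, and 0 were called for the difference (1 at an unadjusted p under 0.05). Ifit1 was at 0.51 ± 0.45 without and 1.22 ± 0.36 with cGas (interval of the difference -1.97 to 0.54). Cxcl10, an interferon-induced chemokine, was at 1.81 ± 0.60 without and 2.12 ± 0.46 with cGas (interval -1.96 to 1.33). Neither interval leaves out 0.

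Macrophage markers were called in 5 of 25 without and 20 of 25 with cGas, at medians of 0.87 and 1.03, and chemokines in 5 and 12 of 20, at medians of 1.42 and 1.63. For the difference 0 genes of either list were called. Genes with the smallest p for the difference were Mafa, Foxd1, Dgkg, Capza1-ps1 and Zswim5, each with an edgeR adjusted p of 0.9998. Mafa, a transcription factor of pancreatic beta cells, stood at 0.599, 0.681, 0.329 and 0.671 CPM in F/F, against 0.0457, 0.191, 0.0862 and 0.184 CPM in F/+ hearts without cGas (2.26 ± 0.48, edgeR adjusted p = 0.0313). With cGas its log2 fold change was -0.06 ± 0.34, and the difference was 2.32 (interval 1.09 to 3.55). These are few reads, and the call without cGas was lost in 7 of 8 leave-one-out fits (edgeR adjusted p up to 0.132), with F/F replicate 3 the exception. Cxcl2 was 3.29 ± 0.59 higher without and 1.51 ± 0.41 with cGas (interval of the difference 0.24 to 3.31, edgeR adjusted p of the difference 0.9998).

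The count of called genes depended on single libraries. Left out one at a time, F/F replicates 1, 2, 3 and 4 gave 11, 39, 175 and 8 calls and F/+ replicates 1, 2, 3 and 4 gave 68, 18, 7 and 12. Of the 78 genes, 6 kept their call in each of the 8 fits, and these are Ccl2, Ccl7, Hmox1, Spp1, Mmp12 and Il1rn. F/F replicate 3, a female, is the library whose removal raised the count. The direction of these 6 genes held in each setting that tested them, but none was called with both male F/F hearts left out, nor in a fit of the 8 libraries with no sex term.

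**Figure D5:**
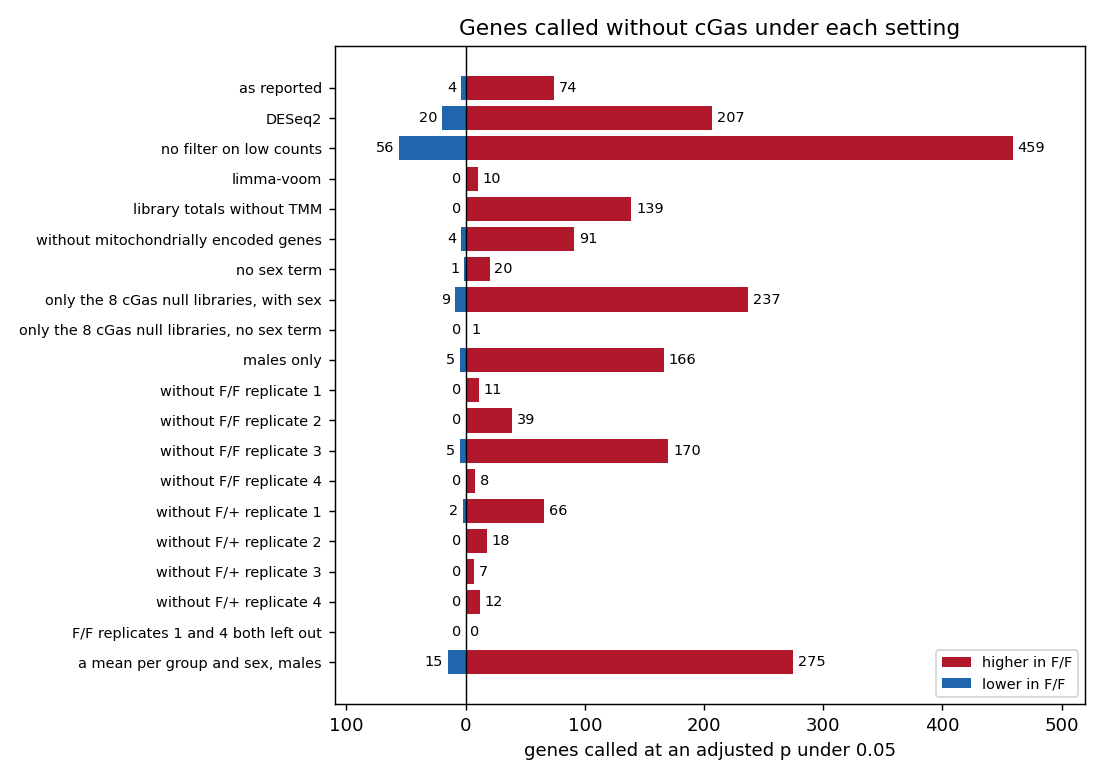
Number of genes called higher (red, right) and lower (blue, left) in F/F hearts without cGas as reported and under 19 other settings. Counts run between 0 with the male F/F hearts left out and 515 (459 higher and 56 lower) with no filter on low counts.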

How the data were processed

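The authors deposited a table of read counts per gene for QuantSeq 3' libraries. The submitters' processing notes name STAR 2.7.9 as a tool and mm39 as the genome build. The counter, its gene models and its use of strand were not stated there, and reads of overlapping or near-identical genes may be shared. A deposited table of other units was not used. Counts of 20 libraries, 8 without and 12 with cGas, were fitted in R 4.3.3 with edgeR 4.0.16 (TMM, filterByExpr with a minimum count of 10 and a minimum total of 15, quasi-likelihood test, a mean per group and a term for sex), and p-values were adjusted by Benjamini-Hochberg over 14812 genes. The 8 libraries without cGas held 23732239 to 28884658 counts. Single values were compared with exact permutation tests. Promoters came from RefSeq on GRCm38.p6, a different build from that of the counts. DESeq2 1.42.0, limma 3.58.1 (voom), other filters, scaling, sex terms and left-out libraries were tried. The code was tested on simulated data.

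Genes named are Lmna, Cgas, up to 8 called genes with the largest rise and fall among those with a mean of at least 5 CPM and no overlap, up to 4 called members of each list (2 of smallest p where none was called) and the 5 genes of smallest p for the difference. Others named were chosen after their values were seen. The comparison and the gene lists were chosen with earlier results of these data known.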

Additional observations from a re-analysis of the deposited data

Results flagged for a closer look

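In 16 of 222 groups of 4 hearts, over 111 named genes, 1 library lay far from the other 3 by Dixon's criterion, which chance meets in about 1 in 20 groups. Among F/F hearts, replicate 3 was low for Gzma (0.329 CPM) and Ngfr (0.247 CPM) and high for Mybphl (27.2 CPM). F/F replicate 4 was low for Lum (51.9 CPM) and high for Slc16a3 (2.38 CPM), F/F replicate 2 was low for Psmb8 (12.7 CPM) and F/F replicate 1 low for Mlycd (22.1 CPM). Among F/+ hearts, replicate 1 accounted for 6 of 9 such values. It was high for Cox7a1 (3662 CPM), Ly6c1 (180.3 CPM), Rxrg (50.1 CPM), Rps7 (592.8 CPM) and Oas3 (0.0457 CPM) and low for Sun1 (5.62 CPM). The Oas3 value is 1 read, with 0 in the other F/+ libraries, and any lone read meets the criterion. F/+ replicate 4 was high for Sln (279.1 CPM), Mybphl (16.7 CPM) and Cidec (0.590 CPM).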

How the results depend on the processing

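The 78 genes called without cGas became 227 with DESeq2, 515 with no filter on low counts, 10 with limma-voom and 139 on library totals without TMM, a scaling that moved the median of all genes to 0.158 and left 139 higher and 0 lower. They became 21 with no sex term, 246 in a fit of the 8 libraries alone with sex and 1 without it, and 171 in males. Leaving out single libraries gave 7 to 175. Of alternatives chosen after seeing the data, leaving out both male F/F hearts gave 0 and a mean per group and sex gave 290 in males. With cGas the 686 calls became 1183 with no filter and 432 in males. The difference between the effects went to 23 calls with no filter and had 0 in each other setting tried. For named genes and lists, 2651 values were counted as unchanged, 189 lost a call, 118 gained one and 133 moved. Unchanged list medians moved by less than the spread. Direction was checked only for genes called in the fit as reported, and none of the called values reversed. A gene without a call counted as unchanged where its direction turned. The causes were not tested. No paired analysis was possible because the replicate numbers follow the order of deposit and pair no libraries. With 4 libraries a group and a median SE of 0.25, small changes were not detectable.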
